A study of Oryza sativa Japonica Group with 6 samples.

Results

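The 24 nt products of annotated rice hairpins were 58 of the 486 miRNAs listed for anthers of a diploid rice and its autotetraploid. Each carried a rice name (osa-), was 24 nt long and belonged to a family numbered 800 or above, with 7 families and 4 single products left out by name. The rule reads names and lengths only, but it was set with earlier results of these data known. Of the 162 listed miRNAs that were 24 nt long, 96 others were predicted ones (PC names, without an annotated hairpin).

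In plants, most miRNAs are cut to shorter lengths by DCL1, whereas DCL3 makes the 24 nt small RNAs that are best known from transposons and repeats. In rice, 24 nt products of some hairpins, called long miRNAs, are loaded into AGO4 and direct DNA methylation, and AGO4 prefers a 5′ adenine. Some of these hairpins derive from transposons: the miR820 family lies in CACTA elements and targets the DNA methyltransferase gene OsDRM2, and the miR812 family derives from miniature inverted-repeat elements.

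Anthers of Taichung65-2x and of Taichung65-4x, whose chromosomes were doubled from it by colchicine before many rounds of selfing, were sampled at pre-meiotic interphase (PMA), meiosis (MA) and the single microspore stage (SCP). Diploid florets measured 2.50 to 3.00, 3.80 to 4.30 and 5.50 to 6.00 mm at these stages, with anthers of 0.75 to 0.85, 1.00 to 1.35 and 1.40 to 1.55 mm. Tetraploid florets measured 3.50 to 4.00, 4.80 to 5.30 and 6.50 to 7.00 mm, with anthers of 0.90 to 1.40, 1.45 to 1.95 and 1.50 to 2.05 mm. Each of the 6 groups had 1 library, so every difference here is between 2 libraries and no test across conditions was run. Anthers hold several tissues besides the pollen cells, and fewer cells of a type and less RNA per cell cannot be told apart in such samples. Values are signals, that is read numbers multiplied by 1 factor per library, and 1 read was worth between 0.797 and 1.36. The 58 products drew between 3513 and 6738 reads per library.

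The name "annotated hairpin" held in different degrees. According to the notes in the tables, 44 products came from precursors mapped to the rice genome, 9 fell in a class that the notes do not define, and 5 matched a mature miRNA without mapping to the genome. The 5 were osa-miR812o-5p_L+4R-1_1ss10TC, osa-miR812s_1ss11AG, osa-miR812v_1ss4GA, osa-miR2121a_L+1R-1_1ss10GA and osa-miR5802_1ss11CT. Only 9 of the 58 had exactly the mature sequence of miRBase, 18 differed from it at the ends or by a substitution, and 31 came from the opposite arm of a hairpin (names ending in p5 or p3 after MIR). In these names L and R give bases gained or lost at the ends, and ss gives substituted bases. The products spread over 42 families, 31 of them with a single product. Among these 58, miR1440 had 4 products and miR812, miR814 and miR1862 had 3 each. The rule leaves out osa-miR812g, osa-miR812n-5p_L-1R+1, osa-miR1874-3p and osa-miR1876, so the miR812 family held more 24 nt rows in the tables than are counted here.

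The sequences that carry the results are printed 5′ to 3′ in DNA letters as the tables give them, with the seed (bases 2 to 8) in capitals. The most abundant pair is shown first because it held most of the signal. Both arms of the miR5792 hairpin lacked the 5′ adenine.
osa-miR5792_1ss22AC: gATGACAGcggtggttcggacctc
osa-MIR5792-p3: tTCGGCTTtgtacctgcttggctt

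The products that were more than 2-fold higher in the tetraploid at SCP are shown next, since SCP had the most ploidy differences. Only the miR1436 pair had a seed in common.
osa-MIR5542-p3_1ss17AG: aTTTACAAtagaaaaagtggtacc
osa-miR5148a_L+2R-2: aATGAGGGgtagaaatgtcatatc
osa-MIR7692-p5: aTGCAGCGgtatgaatgaaatgac
osa-miR1429-5p_R+3: gTAATATActaatccgtgcatcca
osa-miR1862d: aCTAGGTTtgtttattttgggacg
osa-MIR1440b-p3_1ss17TC: tCAAACAAaagtgatgcgggaccc
osa-miR1436_L+3_2ss5CT16GA: cTTATATTatgggacagagggagt
osa-miR1436_L+3_1ss5CT: cTTATATTatgggacggagggagt
osa-MIR1871-p5: aATATATCtgttgtttctctcaaa
osa-miR2121a_L+1R-1_1ss10GA: gAAAACGGaacggtccattagcgc
osa-MIR1873-p5: aCCTCAACatggtatcagagctgg
osa-miR1874-5p: tAGGGCTActacaccatccataag

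A last set holds the products with the clearest stage courses and those whose sequences overlap another member. osa-MIR1440b-p5_1ss19TC is shown because it repeats 22 bases of osa-MIR1440b-p3_1ss17TC on the same strand, shifted by 2 bases, although the names place them on opposite arms.
osa-MIR2101-p3: aACAAGTTtggcactctgaacgat
osa-miR1871: aTGGCTCTgatatcatgttggttt
osa-miR1875: aCAATGGAgtgaagtgcaacagaa
osa-miR1423-5p_L-2R+2: gCAACTACacgttgggcgctcgat
osa-miR1862a: aCGAGGTTggtttattttgggacg
osa-MIR1440b-p5_1ss19TC: aTTCAAACaaaagtgatgcgggac
osa-MIR821a-p5_1ss3AC: aTCCGACAaagtgatagtaacatt
osa-miR812o-5p_L+4R-1_1ss10TC: tTTTCGTGtccaacgtttgactgt
osa-miR812s_1ss11AG: aAGACGGAcagtcaaacgttggac

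Adenine was the first base of 39 of the 58 products (67.2%). The share was 74.0% among the 96 predicted 24 nt miRNAs and 15.2% among the 231 miRNAs of 21 nt, of which 51.9% began with T. Of the products of the other arm 25 of 31 began with A, and of those named as mature 14 of 27. Weighted by signal the picture was different, because the miR5792 pair begins with G and T. Products with a 5′ A made up only 9.83 to 23.1% of the summed signal of all members per library, but 59.9 to 73.0% once the miR5792 pair was left out.

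Few members repeated one another. The 58 rows held 57 distinct sequences and 56 distinct seeds. osa-MIR821a-p5_1ss3AC and osa-MIR821c-p5_1ss3AC had the same sequence and the same values, so they are 1 measurement listed under 2 names. The miR1436 pair differed by G16A, counted from the 5′ end with the base of osa-miR1436_L+3_1ss5CT first. osa-miR1862a and osa-miR1862d differed by G3T and G9T, with the base of osa-miR1862a first, so that their seeds differ. osa-miR812o-5p_L+4R-1_1ss10TC and osa-miR812s_1ss11AG were complementary over 17 bases. Of the 58 products, 42 had whole read numbers in every library and 16 had fractions of a read in at least 1. Near-alike products may share reads, so their separate values are uncertain, and no counting interval is given where a value was not whole reads.

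The miR5792 hairpin dominated the group in every library. osa-miR5792_1ss22AC had signals of 3160, 3461 and 1738 at PMA, MA and SCP in the diploid and of 2841, 3959 and 2002 in the tetraploid. Its partner osa-MIR5792-p3 had 1065, 1016 and 581 in the diploid and 1003, 1047 and 638 in the tetraploid. Together they made up 68.4 to 84.7% of the summed signal of the members. The next highest value of any product was 133, so the third most abundant lay far below both arms.

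On the deposited scale both arms were lower at SCP than at MA by a similar factor in the 2 ploidies. For osa-miR5792_1ss22AC the fold from MA to SCP was 1.99 in the diploid (95% exact binomial interval 1.88 to 2.11, counting error only) and 1.98 in the tetraploid (1.88 to 2.08). Neither passed 2-fold. For osa-MIR5792-p3 the folds were 1.75 (1.59 to 1.93) and 1.64 (1.50 to 1.80). When reads were divided by clean reads instead, the log2 ratio of osa-MIR5792-p3 in the diploid moved from -0.81 to 0.06, so its direction depended on the scaling. The ratios of osa-miR5792_1ss22AC moved from -0.99 to -0.12 in the diploid and from -0.98 to -0.39 in the tetraploid, so that the factors were smaller and no longer alike.

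Between the ploidies, neither arm differed by over 1.15-fold at any stage on the deposited scale. osa-miR5792_1ss22AC was 1.11-fold lower in the tetraploid at PMA (1.05 to 1.18), 1.14-fold higher at MA (1.09 to 1.20) and 1.15-fold higher at SCP (1.09 to 1.22). These intervals lie clear of 1 but hold no variation between plants. With libraries scaled to equal sums of the miRNAs listed for both ploidies, its log2 ratio of 0.19 at MA became 0.50. With clean reads it became 0.51. At SCP the ratio of 0.20 became 0.55 and 0.24. For osa-MIR5792-p3 the ratio moved from 0.04 to 0.35 and 0.36 at MA, and from 0.13 to 0.48 and 0.18 at SCP. At PMA the 2 scalings shifted ratios by 0.01 and 0.09. The ratio of the arms needs no scaling between libraries. It was 2.97 (2.74 to 3.22), 3.41 (3.18 to 3.65) and 2.99 (2.74 to 3.27) at PMA, MA and SCP in the diploid, and 2.83 (2.60 to 3.09), 3.78 (3.54 to 4.04) and 3.14 (2.90 to 3.40) in the tetraploid. The ratio was highest at MA in both ploidies, although its interval at MA in the diploid overlapped those of the other 2 stages.

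**Figure D1:**
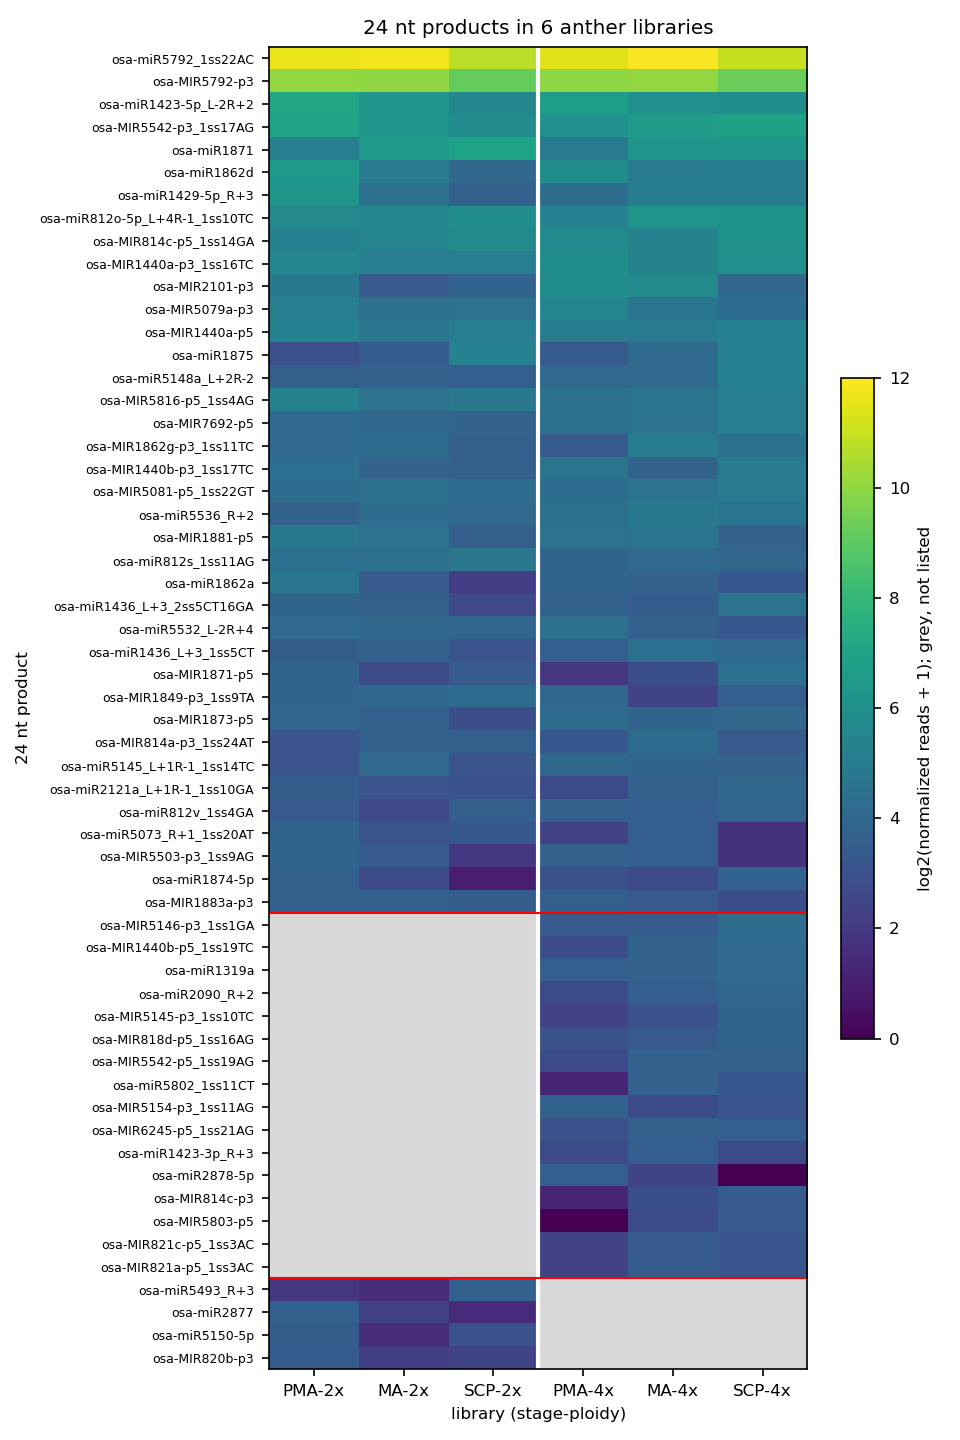
Signal of each of the 58 products (rows) in the 6 libraries (columns), as log2(normalized reads + 1), with grey where a table does not list the product. Red lines divide the 38 products listed for both ploidies from the 16 listed only for Taichung65-4x and the 4 listed only for Taichung65-2x, and the 2 bright rows at the top are the arms of the miR5792 hairpin, with signals of 581 to 3959.

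Of the 58 products, 38 were listed for both ploidies, 16 only for Taichung65-4x and 4 only for Taichung65-2x. A table lists a miRNA whose signal exceeds 10 in at least 1 stage, so a product that is not listed may still have been present at up to 10. Those listed only for Taichung65-4x made up 27.6% of the members, 46.9% of the predicted 24 nt miRNAs, 17.3% of all miRNAs and 4.49% of the 156 other rice products of 21 or 22 nt from families numbered 800 or above. The 7 families left out of the members were not left out of this 21 or 22 nt class, here and below. In that respect the class is not matched to the members. All 20 products of a single table were near the limit. Their highest values ranged from 10.4 to 18.3 for Taichung65-4x and from 10.3 to 12.4 for Taichung65-2x.

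The most abundant products listed only for Taichung65-4x all had their highest value at SCP. The signals of osa-MIR5146-p3_1ss1GA at PMA, MA and SCP were 9.51, 9.97 and 18.3. Those of osa-MIR1440b-p5_1ss19TC were 6.11, 13.1 and 17.5. osa-miR1319a was at 10.9, 12.7 and 17.1. Each of the 3 was thus within 2-fold of the limit at its highest. osa-miR2090_R+2 was at 5.44, 10.9 and 14.4, and osa-MIR818d-p5_1ss16AG at 6.79, 9.06 and 13.6. osa-MIR5145-p3_1ss10TC reached the same 13.6, from 4.08 and 7.25. Of the 16, 9 were highest at SCP, 5 at MA and 2 at PMA, and 14 began with A.

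The 4 products listed only for Taichung65-2x included the single member of the miR820 family. osa-MIR820b-p3, the opposite arm of a miR820 hairpin, had signals of 10.3, 3.62 and 4.44 at PMA, MA and SCP. osa-miR2877 was at 12.1, 3.77 and 1.78, and osa-miR5150-5p at 10.8, 1.89 and 7.11. All 3 were highest at PMA. osa-miR5493_R+3 had its highest value at SCP instead, with 2.69, 1.89 and 12.4.

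The next question was how the products differed between the ploidies at each stage. A product was compared where its larger signal exceeded 10, and counted as higher or lower where the fold exceeded 2. Where one ploidy did not list a product, a value of 10 was used, which can only understate its fold. The sign of such a ratio is fixed toward the ploidy that lists the product, and these ratios enter the medians. Medians over miRNAs listed for both ploidies are free of them and are also given. No product counted here rested on that bound, and none could, since the highest value of any such product was 18.3. At PMA, 1 of 42 products was higher in the tetraploid and 3 were lower. Over all 397 miRNAs compared, 5.54% were higher and 5.54% lower. The median log2 ratio of the products was -0.10, against 0.00 for all miRNAs, so the group as a whole stood close to the others.

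The product higher in the tetraploid at PMA was osa-MIR2101-p3, with signals of 26.9 and 59.8 (2.22-fold, 1.28 to 3.98). The clearest of the lower ones was osa-miR1429-5p_R+3, at 72.7 in the diploid and 19.0 in the tetraploid (3.82-fold, 2.09 to 7.45). osa-MIR1871-p5 was at 13.5 and 2.72 (4.96-fold lower, 1.06 to 46.5), a difference of 10 reads against 2. The fold of osa-miR5073_R+1_1ss20AT, 13.5 against 4.08, had an interval that included 1 (3.30-fold, 0.851 to 18.7).

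At MA, 2 of 45 products were higher in the tetraploid and 1 was lower, against 5.26% and 9.21% of the 380 miRNAs compared. osa-MIR2101-p3 was again higher, at 9.44 and 52.5 (5.57-fold, 2.82 to 12.2). It was the only product counted in the same direction at more than 1 stage. osa-miR812v_1ss4GA, which did not map to the genome, was at 5.19 and 10.9, a fold of 2.09 without an interval. osa-MIR1849-p3_1ss9TA was at 15.1 and 4.53 (3.33-fold lower, 1.17 to 11.6).

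The median log2 ratio at MA was 0.21 for the products and -0.18 for all miRNAs, a gap of 0.38. In products listed for both ploidies the median was 0.20, against -0.26 for all such miRNAs. The median of the predicted 24 nt miRNAs lay 0.47 above that of all miRNAs, and that of the 21 or 22 nt products differed from it by -0.29. Scaling the libraries to equal sums of the miRNAs in both tables shifted every log2 ratio at MA by 0.31, and so did dividing by clean reads (reads left after filtering). Under either scaling 5 products, not 2, were higher and 1 was lower, without a matching count over all miRNAs. The gap to all miRNAs does not depend on the scaling.

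At SCP, 12 of 46 products (26.1%) were higher in the tetraploid and 0 were lower. Over all 382 miRNAs compared, 13.4% were higher and 10.2% lower. The median log2 ratio was 0.43 for the products and 0.02 for all miRNAs, and in products listed for both ploidies it was 0.42, with 27 of 35 ratios above 0, against -0.11 for all such miRNAs. The predicted 24 nt miRNAs gave a like picture, with 20 of 72 higher, 0 lower and a median of 0.51. In contrast, 6 of 133 products of 21 or 22 nt were higher and 17 lower, with a median of -0.27. All 12 higher products were listed in both tables. Scaling to equal sums or to clean reads raised every log2 ratio at SCP, by 0.35 and 0.04, so all 12 had to remain higher. Equal sums gave 18 higher in total, without a matching count over all miRNAs. Adding a pseudocount of 10 left 3 higher, and a minimum signal of 50 left 1 of 8. Of the 10 that had counting intervals, 7 had intervals clear of 1.

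The most abundant of the 12 was osa-MIR5542-p3_1ss17AG, with signals of 54.2 in the diploid and 117 in the tetraploid at SCP (2.16-fold, 1.59 to 2.97). It was the only one of the 12 above 50. osa-miR5148a_L+2R-2 was at 11.0 and 37.7, a fold of 3.44 without an interval. osa-MIR7692-p5 was at 13.3 and 34.3 (2.57-fold, 1.40 to 4.99). These 3 were on different hairpins. osa-miR1429-5p_R+3 was at 12.4 and 31.9 (2.56-fold, 1.37 to 5.10), and osa-miR1862d at 15.1 and 31.9 (2.11-fold, 1.17 to 3.97). osa-MIR1440b-p3_1ss17TC was at 11.5 and 30.3 (2.62-fold, 1.37 to 5.37).

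The remaining 6 had signals of 22.3 or less in both ploidies. osa-miR1436_L+3_2ss5CT16GA was at 5.33 and 22.3 (4.19-fold, 1.70 to 12.4). Its near-copy osa-miR1436_L+3_1ss5CT was at 7.55 and 16.3, a fold of 2.16, and both are uncertain as near-copies. osa-miR1874-5p had the highest fold, 14.4, but on 1 read against 16, which gives an interval of 2.23 to 602. The intervals of osa-MIR1871-p5 (9.77 and 19.9), osa-MIR1873-p5 (6.22 and 14.4) and osa-miR2121a_L+1R-1_1ss10GA (7.11 and 15.2) included 1. For these last 3, a fold of 1 is within counting error.

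**Figure D2:**
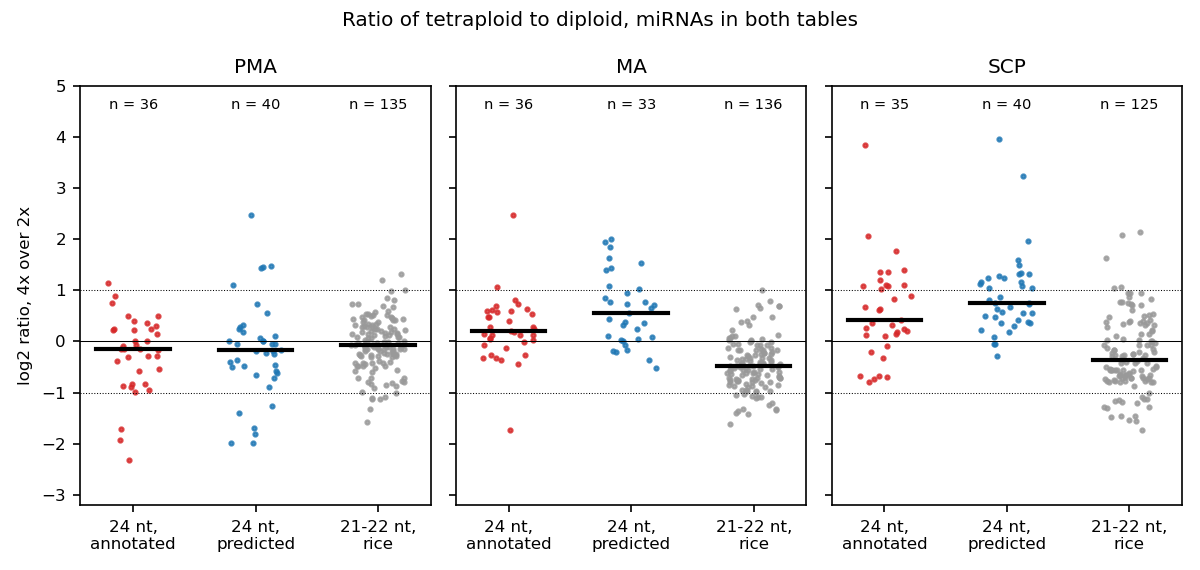
Log2 ratio of Taichung65-4x to Taichung65-2x at PMA, MA and SCP for miRNAs in both tables (1 point each, bars at the medians, dotted lines at 2-fold). The medians of the annotated 24 nt products were -0.14, 0.20 and 0.42, those of the predicted 24 nt miRNAs -0.17, 0.56 and 0.76, and those of the 21 or 22 nt rice products -0.06, -0.47 and -0.36.

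Over the 3 stages, 16 of the 58 products were counted in at least 1 ploidy comparison, 3 in 2 and 0 in all 3. The same counts were not made over all miRNAs, so they do not set the products apart. Of the products, 3 were thus counted at more than 1 stage. Of these 3, osa-miR1429-5p_R+3 and osa-MIR1871-p5 were lower in the tetraploid at PMA and higher at SCP. The third, osa-MIR2101-p3, was higher at PMA and MA and had 13.3 and 14.4 at SCP, where the ploidies did not differ by 2-fold.

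Products named as mature and those of the other arm had 7 of 20 and 5 of 26 higher at SCP. Those with a 5′ A and those without gave 6 of 30 and 6 of 16. The difference between these counts was not tested. Leaving out the miR5792 pair left the 12 of 44 that were higher and a median of 0.44.

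Shares within a library do not depend on scaling between libraries. The products together took 4.10, 4.96 and 4.03% of all listed signal at the successive stages in the diploid and 3.74, 7.02 and 6.25% in the tetraploid. Without the miR5792 pair the shares were 0.849, 0.760 and 1.04% in the diploid and 0.772, 1.26 and 1.98% in the tetraploid. In both ways of counting the tetraploid share was the lower one at PMA and the higher one at MA and SCP. A share also depends on the other miRNAs of its library. On the deposited scale all listed signal was 129895, 106731 and 77448 in the diploid and 129557, 86888 and 61725 in the tetraploid. All these sums include miRNAs listed for 1 ploidy only.

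Limited to the 36 products other than miR5792 in both tables, the summed signal was 1066, 800 and 776 in the diploid and 906, 944 and 1041 in the tetraploid. On the deposited scale it went down along the stages in the diploid and up in the tetraploid, but the diploid log2 ratio of SCP to PMA, -0.46, turned to 0.29 with equal sums and 0.79 with clean reads. The tetraploid ratio of 0.20 became 1.29 and 1.40, and so stayed above the diploid one. As a share of the summed 21 nt miRNAs in both tables it was 1.30, 0.975 and 1.21% in the diploid and 0.991, 1.54 and 2.42% in the tetraploid. The miR5792 pair itself was 5.16, 5.46 and 3.62% of the 21 nt sum in the diploid and 4.21, 8.14 and 6.14% in the tetraploid. As a share of that pair, the 36 products were 25.2, 17.9 and 33.5% in the diploid and 23.6, 18.9 and 39.4% in the tetraploid. Set against their own dominant hairpin, then, the ploidies were closer than against the 21 nt miRNAs.

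**Figure D3:**
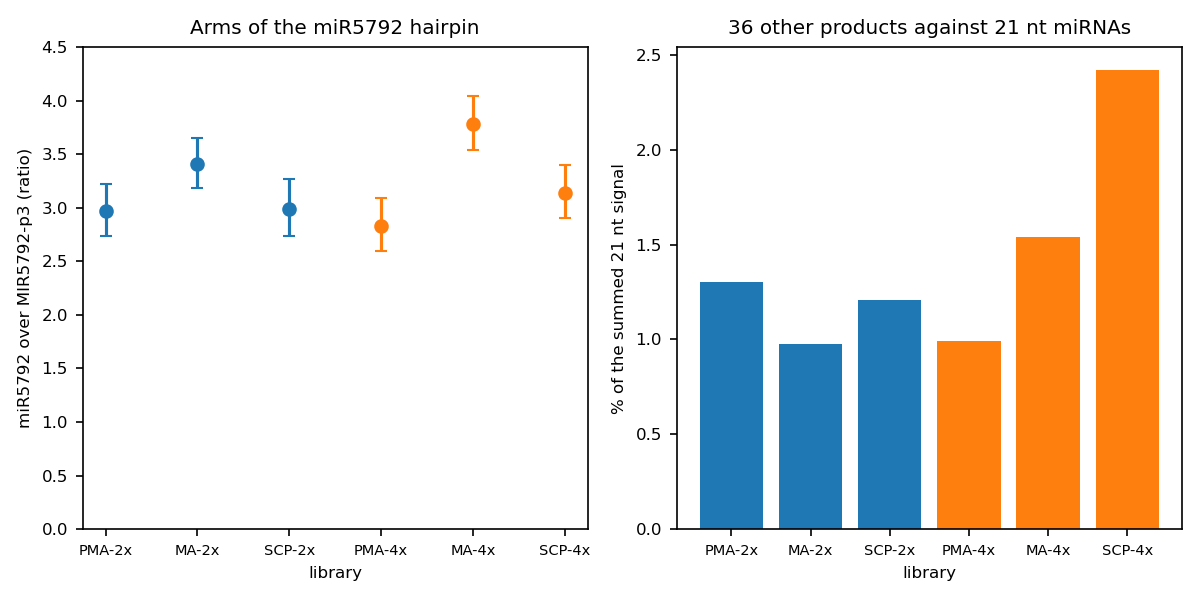
Left, ratio of osa-miR5792_1ss22AC to osa-MIR5792-p3 in each library, with 95% exact binomial intervals of counting error (blue, Taichung65-2x; orange, Taichung65-4x). Right, summed signal of the 36 other products in both tables as a percentage of the summed 21 nt miRNAs, from 0.975% at MA in the diploid to 2.42% at SCP in the tetraploid.

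The stage comparisons asked how the products differed along pollen development within a ploidy, and both steps use the same MA library. From PMA to MA in the diploid, 2 of 40 products were higher and 9 lower, against 5.54% and 22.2% of all miRNAs. The median log2 ratio was -0.29, but 0.09 when reads were divided by clean reads, which left 4 higher and 6 lower. From MA to SCP, 3 of 35 were higher and 4 lower, against 8.17% and 37.2%. The median was -0.18, but 0.28 with equal sums (3 higher, 2 lower) and 0.69 with clean reads (11 higher, 1 lower). Directions of the whole group along the stages are therefore not fixed by these data. The counts under the other scalings have no matching shares over all miRNAs, whose ratios shift alike. Relative to all miRNAs, which no scaling changes, the medians were 0.08 and 0.49 above.

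In Taichung65-4x, 12 of 47 products were higher at MA than at PMA and 3 lower, against 10.3% and 29.2% of all miRNAs, with a median of 0.21. Equal sums gave 19 higher and 1 lower, and clean reads 20 and 1. Of the 12, osa-MIR814a-p3_1ss24AT, osa-miR1423-3p_R+3 and osa-miR2090_R+2 were barely past the limit with a fold of 2.00, and 3 of the 8 with intervals were clear of 1. The 12 include osa-MIR821a-p5_1ss3AC and osa-MIR821c-p5_1ss3AC, a single sequence at 4.08 and 10.4. These and others of the 12 were listed only for Taichung65-4x, such as osa-miR5802_1ss11CT at 1.36 and 12.7. With PMA signals under 10, they were listed only because a later stage exceeded 10, so that limit favoured their direction. Products listed only for Taichung65-4x were 27.6% of the members but 17.3% of all miRNAs. From MA to SCP, 7 of 51 were higher and 3 lower, against 9.23% and 21.3%, with a median of 0.07. Equal sums gave 16 higher and 3 lower, and clean reads 19 and 3. Here too the counts under the other scalings have no matching shares over all miRNAs. Relative to all miRNAs the medians were 0.79 and 0.38 above.

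In all 4 stage comparisons the products had a higher median than all miRNAs. In the diploid the 95% order-statistic intervals of the products' medians, -0.70 to 0.01 and -0.74 to 0.10, included the -0.38 and -0.67 of all miRNAs. In the tetraploid they were -0.14 to 0.74 and -0.14 to 0.41, above the -0.58 and -0.31 of all miRNAs. The intervals treat products as independent and hold no variation between plants. Those in the tetraploid include products listed only for Taichung65-4x, 9 of them highest at SCP, 5 at MA and 2 at PMA. For products listed through a later stage the listing limit favoured increases, so the intervals cannot show a departure limited to the tetraploid. In products listed for both ploidies the median log2 ratio of SCP to PMA was 0.23 in the tetraploid, against -1.11 for all such miRNAs. In the diploid it was -0.51, against -1.01. In the 4 stage comparisons, the medians of the predicted 24 nt miRNAs differed from those of all miRNAs by -0.14 and 0.84 in the diploid. In the tetraploid the differences were 0.89 and 0.65. The predicted miRNAs lay above the products in 3 of the 4. The median of the 21 or 22 nt products lay below that of all miRNAs in the same comparisons, with differences of -0.03 and -0.50 in the diploid and -0.34 and -0.53 in the tetraploid.

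Among the 38 products in both tables, 22 had their highest value at PMA in the diploid, 9 at MA and 7 at SCP. In Taichung65-4x, 11 were highest at PMA, 10 at MA and 17 at SCP. In Taichung65-2x 16 went down at both steps and 5 up at both, while in the tetraploid 8 went down and 10 up, whatever the size of the step. These counts hold on the deposited scale only. They were not made over all miRNAs, whose median log2 ratios on that scale were -0.38 and -0.67 at the diploid steps. At the tetraploid steps those medians were -0.58 and -0.31. The log2 ratio of SCP to PMA was higher in the tetraploid for 23 of the 38 and lower for 15, with a median difference of 0.49. The median difference was 1.15 for the predicted 24 nt miRNAs, -0.33 for the 21 or 22 nt products and -0.23 for all miRNAs.

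A pair of products increased along the stages in both ploidies. osa-miR1871 had signals of 33.7, 88.7 and 125 at PMA, MA and SCP in the diploid and of 29.9, 74.3 and 78.2 in the tetraploid. From PMA to MA it was 2.64-fold higher in the diploid (1.68 to 4.28) and 2.48-fold higher in the tetraploid (1.54 to 4.18). On the deposited scale its larger step lay between PMA and MA in both ploidies. osa-miR1875 was at 6.73, 10.4 and 39.1 in the diploid and at 9.51, 17.2 and 36.7 in the tetraploid. From MA to SCP it was 3.77-fold higher (1.91 to 8.09) and 2.13-fold higher (1.22 to 3.85). Its larger step was the later one on that scale. Equal sums and clean reads raise every stage ratio, so these increases could not turn. Under them the contrast between the steps was less clear. With equal sums and clean reads the tetraploid log2 ratios of osa-miR1875 were 1.44 and 1.46 from PMA to MA and 1.60 and 1.69 from MA to SCP, and the diploid ratios of osa-miR1871 from MA to SCP were 0.96 and 1.37.

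osa-MIR1871-p5, from the opposite arm of the miR1871 hairpin, did not follow its partner in the diploid, but increased at both steps with it in the tetraploid. osa-MIR1871-p5 was at 13.5, 5.66 and 9.77 in the diploid and at 2.72, 6.34 and 19.9 in the tetraploid. The diploid fold from PMA to MA, 2.38-fold lower, had an interval that included 1 (0.783 to 7.96). The ratio of osa-miR1871 to it was 2.50 (1.16 to 5.83), 15.7 (6.93 to 43.8) and 12.8 (6.95 to 26.3) in the diploid, and 11.0 (2.70 to 96.5), 11.7 (5.44 to 30.0) and 3.92 (2.51 to 6.35) in the tetraploid. The intervals at SCP did not overlap between the ploidies. At PMA and MA they did.

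A further 3 abundant products were lower at SCP than at PMA in the diploid under all scalings. osa-miR1423-5p_L-2R+2 had 133, 76.4 and 45.3 in the diploid and 102, 63.4 and 56.6 in the tetraploid. osa-miR1862d had 82.1, 30.2 and 15.1 in the diploid and 57.1, 30.8 and 31.9 in the tetraploid. osa-miR1429-5p_R+3 had 72.7, 20.8 and 12.4 in the diploid and 19.0, 31.7 and 31.9 in the tetraploid. In the diploid all 3 were highest at PMA, while in the tetraploid osa-miR1429-5p_R+3 was lowest there. From PMA to MA in the diploid the fold was 2.72 for osa-miR1862d (1.75 to 4.31) and 3.50 for osa-miR1429-5p_R+3 (2.10 to 6.04), both lower at MA. For osa-miR1423-5p_L-2R+2 it was 1.74 (1.29 to 2.37), under the limit.

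osa-MIR5542-p3_1ss17AG had opposite orders of the stages in the ploidies, with 128, 74.6 and 54.2 in the diploid and 66.6, 98.7 and 117 in the tetraploid. From PMA to SCP it was 2.36-fold lower in the diploid (1.69 to 3.31) and 1.76-fold higher in the tetraploid (1.27 to 2.49). The diploid log2 ratio of -1.24 was -0.49 with equal sums and 0.01 with clean reads, so the diploid decrease depended on the scaling. The tetraploid ratio, which both scalings raise, stayed above 0. The largest differences of this kind were on few reads. The log2 ratio of SCP to PMA was higher in the tetraploid by 4.68 for osa-miR1874-5p, with 12.1, 5.66 and 0.888 in the diploid and 6.79, 5.44 and 12.8 in the tetraploid. For osa-MIR1871-p5 the difference was 3.34, and for osa-miR1429-5p_R+3 it was 3.29.

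osa-MIR2101-p3 had a course of its own. Its signals were 26.9, 9.44 and 13.3 in the diploid and 59.8, 52.5 and 14.4 in the tetraploid. In the diploid it was 2.85-fold lower at MA than at PMA (1.27 to 6.83). In the tetraploid the step came later, with a fold of 3.66 from MA down to SCP (2.13 to 6.60).

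The products higher in the tetraploid at SCP differed in their other stages. osa-miR5148a_L+2R-2 had signals of 11.4, 12.6 and 11.0 in the diploid and 16.1, 17.5 and 37.7 in the tetraploid, and osa-MIR7692-p5 had 17.5, 15.1 and 13.3, and 20.4, 22.6 and 34.3. Both were above the diploid at every stage but past 2-fold only at SCP. osa-miR1436_L+3_2ss5CT16GA was at 13.5, 11.3 and 5.33, and 12.2, 10.4 and 22.3. osa-miR1436_L+3_1ss5CT was at 10.8, 13.2 and 7.55, and 10.9, 19.9 and 16.3. On the deposited scale the diploid value of this pair was lowest at SCP. For osa-miR1436_L+3_1ss5CT that order depended on the scaling, since its diploid log2 ratio of SCP to PMA went from -0.51 to 0.23 with equal sums and 0.74 with clean reads. osa-MIR1873-p5 was at 14.8, 12.3 and 6.22, and 17.7, 13.6 and 14.4. osa-miR2121a_L+1R-1_1ss10GA was at 10.8, 7.55 and 7.11, and 5.44, 11.8 and 15.2.

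osa-MIR5503-p3_1ss9AG was low at SCP in both ploidies. It was at 13.5, 10.4 and 2.67 in the diploid and at 12.2, 10.9 and 2.39 in the tetraploid. From MA to SCP it was 3.89-fold lower in the diploid (1.03 to 21.7) and 4.54-fold lower in the tetraploid (1.23 to 25.1), on 3 reads at SCP in each. It was the only product past 2-fold downwards at that step in both ploidies.

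**Figure D4:**
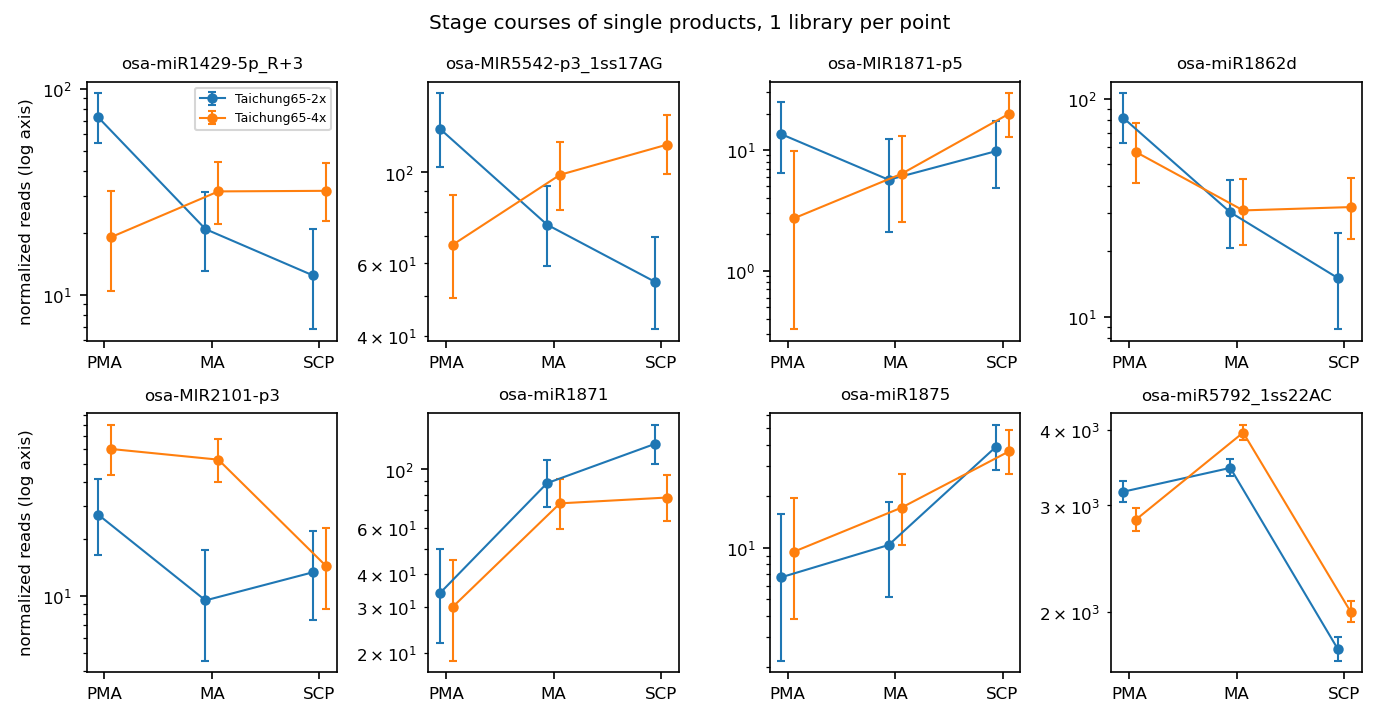
Signal (log axis, a different range in each panel) of 8 products along pollen development (blue, Taichung65-2x; orange, Taichung65-4x), chosen after their values were seen. Each point is 1 library and bars are 95% exact Poisson intervals of its reads, and osa-MIR5542-p3_1ss17AG goes from 128 to 54.2 in blue and from 66.6 to 117 in orange.

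The miR1440 family gave unequal folds. osa-MIR1440a-p3_1ss16TC had signals of 45.8, 34.0 and 33.8 in the diploid and 60.5, 40.3 and 63.0 in the tetraploid. osa-MIR1440a-p5 had 39.1, 25.5 and 34.2, and 31.9, 29.4 and 39.1. osa-MIR1440b-p3_1ss17TC had 20.2, 13.2 and 11.5, and 23.8, 13.1 and 30.3. All 3 were higher in the tetraploid at SCP, by folds of 1.87, 1.14 and 2.62, of which the last alone passed the limit. osa-MIR1440b-p3_1ss17TC was also 2.31-fold higher at SCP than at MA in the tetraploid, a fold without an interval.

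The 3 miR812 products, none of which mapped to the genome, spanned 1.82-, 1.90- and 2.69-fold over the 6 libraries. osa-miR812o-5p_L+4R-1_1ss10TC had signals of 48.5, 44.2 and 57.3 in the diploid and 39.5, 72.0 and 68.1 in the tetraploid. osa-miR812s_1ss11AG had 20.2, 20.3 and 25.8, and 13.6, 16.3 and 14.8. osa-miR812v_1ss4GA had 9.87, 5.19 and 11.5, and 12.2, 10.9 and 14.0. The first pair is complementary, and their ploidy ratios at MA and SCP had opposite signs, 0.70 and 0.25 against -0.32 and -0.80 on the log2 scale. osa-miR812v_1ss4GA was 2.23-fold higher at SCP than at MA in the diploid.

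The miR814 family held both arms of 1 hairpin in the tetraploid. osa-MIR814c-p5_1ss14GA had signals of 37.7, 42.5 and 52.4 in the diploid and 53.0, 40.8 and 70.2 in the tetraploid, and passed the limit in none of the comparisons. osa-MIR814c-p3, listed only for Taichung65-4x, was at 1.36, 6.34 and 10.4. osa-MIR814a-p3_1ss24AT was at 8.08, 12.7 and 11.5, and 8.83, 17.7 and 9.17. osa-MIR814a-p3_1ss24AT is near-alike to osa-MIR814c-p3 of its own family, with 2 mismatches over 22 bases. It is also near-alike to osa-MIR1862g-p3_1ss11TC of another family, with 3 mismatches over 23 bases.

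In the miR1862 family, osa-miR1862a was at 24.2, 10.4 and 3.55 in the diploid and 13.6, 12.7 and 8.77 in the tetraploid. From PMA to MA in the diploid it was 2.33-fold lower (1.04 to 5.47), but under either other scaling this fold no longer passed 2. osa-MIR1862g-p3_1ss11TC was at 17.5, 17.9 and 11.5, and 9.51, 31.7 and 20.7. It was 3.33-fold higher at MA than at PMA in the tetraploid (1.46 to 8.89). The 2 mature products were thus highest at PMA in the diploid, while the other-arm product was about as high at MA.

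The other members were low. Over all products except the miR5792 pair, the median signal per library was between 12.0 and 16.2, and 5 to 8 products per library exceeded 50 when the pair was counted. A signal worth 3 reads, the limit taken for a count of 0, was between 2.39 and 4.08. osa-MIR5803-p5 at PMA and osa-miR2878-5p at SCP, both in the tetraploid, were listed at 0, and the exact Poisson intervals of these 0 reads, which are two-sided and so wider, reached 5.01 and 2.94. At such depths a 2-fold difference can lie within counting error, as for osa-MIR1871-p5 at SCP (2.04-fold, 0.968 to 4.59).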

How the data were processed

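Small RNA libraries were made from anther RNA with a TruSeq kit and sequenced on an Illumina instrument. The authors filtered reads with ACGT101-miR and mapped them to miRBase precursors and the genome, with 1 mismatch allowed. Its build was not stated in the sources read here. The deposited signal is the copy number of a sequence multiplied by 1 factor per library. The tables of the 2 ploidies were joined by miRNA name. The signal of 1 read was recovered from the spacing of low values, and between 72.3 and 76.1% of values were whole at a tolerance of 0.01. Ratios were computed in Python 3.11.15 with pandas 2.3.3, and exact 95% intervals with SciPy 1.17.1, only where both values were whole reads. Reads carry no molecular identifiers, so intervals and limits cover counting error only. The authors' test on reads was not used, since with 1 library per group it compares libraries. A listed 0 was set at 0.01. The steps were tested on simulated whole reads for all miRNAs listed for both ploidies. That simulation held no fractions of a read and was not limited to the low signals of the members. The members, lists and alternatives were chosen with earlier results of these data known. Named are the 10 highest products, those counted in 2 or more ploidy comparisons, the 5 largest folds per comparison and direction with a signal of at least 20, the 5 most abundant of 1 ploidy, families of 3 or more and identical sequences. Products outside this rule were named after their values were seen. Alternatives were equal sums, reads over the clean reads that the study gives, a minimum of 50, no minimum and a pseudocount of 10. Identical sequences were also counted once, and unlisted products left out in the ploidy comparisons only. Leaving out the miR5792 pair and the 5 products not mapped to the genome were chosen after seeing the data.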

Additional observations from a re-analysis of the deposited data

Results flagged for a closer look

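In 3 products a difference past 2-fold had opposite directions in 2 settings. For osa-MIR1871-p5 the log2 ratio of Taichung65-4x to Taichung65-2x was -2.31 at PMA and 1.03 at SCP. For osa-miR1429-5p_R+3 it was -1.93 at PMA and 1.36 at SCP. For osa-miR1436_L+3_2ss5CT16GA the log2 ratio of SCP to MA was -1.09 in the diploid and 1.10 in the tetraploid, and the diploid value fell short of 2-fold under both other scalings. With 1 library per group these differences were not tested. Only osa-miR1429-5p_R+3 had counting intervals clear of 1 in both settings (2.09 to 7.45 and 1.37 to 5.10). The interval of osa-MIR1871-p5 at SCP (0.968 to 4.59) included 1. So did the diploid interval of osa-miR1436_L+3_2ss5CT16GA (0.738 to 6.90), whose tetraploid fold had none.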

How the results depend on the processing

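Of 177 values under the alternatives (products higher, products lower and the median log2 ratio in 7 comparisons), 128 stayed within 1.5 times the count or within the order-statistic interval of the median, and 49 did not. With equal sums the products higher in Taichung65-4x at MA were 5 and the median log2 ratio 0.51, and with clean reads 5 and 0.52. Counts under the alternatives were not made over all miRNAs. Stage comparisons moved most. With equal sums, 2x MA to SCP gave 2 lower and a median of 0.28, 4x PMA to MA gave 19 higher, 1 lower and 0.79, and 4x MA to SCP gave 16 higher and 0.58. With clean reads, 2x PMA to MA gave 4 higher and 0.09, 2x MA to SCP gave 11 higher, 1 lower and 0.69, 4x PMA to MA gave 20 higher, 1 lower and 0.81, and 4x MA to SCP gave 19 higher and 0.67.

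With a minimum of 50, 7 to 10 products remained per comparison. The counts were then 1 lower at PMA, 1 higher and 0 lower at MA, and 1 higher at SCP between ploidies. Between stages they were 1 higher and 2 lower (2x PMA to MA, median -0.78), 0 and 0 (2x MA to SCP), 1 and 0 (4x PMA to MA), and 0 and 1 (4x MA to SCP). With a pseudocount of 10, which shrinks ratios of low signals, they were 0 higher and 1 lower at PMA, 1 and 0 at MA, and 3 higher at SCP. Between stages they were 1 and 2, 1 and 0, 2 and 0, and 0 and 1 in the same order. With no minimum, 1 product was lower at SCP. Leaving out the products not mapped to the genome left 1 higher at MA.

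Leaving out the miR5792 pair or counting identical sequences once moved none of these counts by over 1.5 times. No median left its interval. The same held for leaving out unlisted products, which was done in the ploidy comparisons only. Each group had 1 library, so plant-to-plant variation was not measured. Most products had signals under 50, where counting error alone is large.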
